A study of Mus musculus with 16 samples.

Results

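The genes described are 33 members of the mouse chemokine family: 13 CC ligands, 9 CXC ligands, the CX3C ligand Cx3cl1, 7 signalling receptors, the 2 atypical receptors Ackr3 and Ccrl2, and the chemokine-like factor Cklf. They were taken by gene name from the expected read counts of bulk RNA-seq libraries, where they are 33 of 55414 features in microglia and 33 of 56980 in astrocytes. Each name had 1 row per cell type. The rule for members uses gene names, but the family was chosen with earlier results of these data known. The 16 libraries came from mice of 4 genotypes, with 2 libraries per genotype and cell type. AD CKO combined a mouse model of Alzheimer's disease (AD) with a conditional knockout of Rack1, AD WT was the AD model without the knockout, CKO carried the knockout alone, and WT carried neither. Per the study's design text, Rack1, which encodes a ribosome-associated scaffold, was deleted in microglia. The labels do not say how the deletion bears on the astrocytes of the same genotypes. The AD model, the driver and timing of the deletion, the age of the mice and how cells were isolated are not given in the sources used here. Nothing in the labels says that the libraries of a group came from separate animals, so the p-values measure the spread between these libraries, which may be technical.

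Chemokines are small secreted proteins that bind to G protein-coupled receptors and to glycans on cell surfaces, and leukocytes move up their gradients. CC ligands such as Ccl2 mostly attract monocytes, macrophages and lymphocytes, whereas CXC ligands of the Cxcl1 and Cxcl2 type attract neutrophils through Cxcr2, and the interferon-inducible ligands Cxcl9, Cxcl10 and Cxcl11 attract activated T cells through Cxcr3. Atypical receptors bind their ligands without G protein signalling, and some of them remove chemokines. In the brain, microglia are a main source of Ccl3 and Ccl4, neurons supply Cx3cl1 to the microglial receptor Cx3cr1, and reactive astrocytes and vessel cells can make Ccl2, Cxcl1, Cxcl10 and Cxcl12.

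Total counts per library ran from 27741882 to 33933068 in microglia and from 29615853 to 35851170 in astrocytes. Levels are given as CPM, counts scaled to a common library total, after scaling with trimmed means (TMM), a value after ± is a standard error for a log2 fold change and a standard deviation (SD) for a level, and n = 2 libraries in every group. In microglia Rack1 stood at 47.2 and 47.8 CPM in AD CKO, 113 and 115 CPM in AD WT, 40.4 and 42.0 CPM in CKO, and 98.1 and 95.2 CPM in WT. It was thus lower but still read in both knockout groups. In astrocytes Rack1 stood at 54.7 and 53.3 CPM in AD CKO, 76.6 and 72.9 CPM in AD WT, 102 and 95.7 CPM in CKO, and 61.1 and 57.9 CPM in WT, with CKO highest. The summed level of 10 microglia markers was 48500 to 50000 CPM in WT microglia and 511 to 519 CPM in WT astrocytes, and that of 10 astrocyte markers was 351 to 353 CPM in WT microglia and 19800 to 20400 CPM in WT astrocytes. Oligodendrocyte markers (10 genes) summed to 14300 to 14500 CPM in WT astrocytes, so those libraries were not of astrocyte RNA alone. In bulk RNA, fewer cells of a type and less RNA per cell cannot be told apart, which holds for every level below.

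The family lies in clusters in the mm10 genome (GENCODE M21). Chromosome 11 holds 10 of the genes, chromosome 5 holds 7 and chromosome 8 holds 5. Cxcl1 and Cxcl2 are 10.8 kb apart on the forward strand of chromosome 5, Cxcl10 lies 18.6 kb from Cxcl9 and 10.7 kb from Cxcl11 on the reverse strand of the same chromosome, and on chromosome 11 Ccl3 and Ccl4 are 13.2 kb apart. Ccl2 is followed by Ccl7 after 8.26 kb. RefSeq gives a window of 250 bases before the gene start (GRCm38.p6) for 24 of the 33 genes, with none used here for Ccl2, Ccl4, Ccl5, Ccl7, Ccl24, Cxcl5, Cxcl11, Cxcl16 and Ccr7. Both strands were searched for a kB consensus, the site type bound by NF-kB, for the core of the interferon-stimulated response element (ISRE, GAAANNGAAA) and for the AP-1 consensus (TGANTCA). A kB match was found in 6 of the 28 windows of these 24 genes (1 each for Ccl9, Cxcl1, Cxcl2, Cxcl10, Ccr6 and Ccrl2), against 3.9% of 32851 windows of all genes. The ISRE core was in 3 of the 28 windows (Ccl19, Cxcl10 and Cxcl14), against 2.98% of all windows, and AP-1 was in 2 (Ccl9 and Cxcl10), against 6.75% of all windows. These are matches of letters in 1 short window per start and were not tested.

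The windows of Cxcl1, Cxcl2 and Cxcl10 are shown because these CXC ligands had among the largest differences in astrocytes of CKO mice and differed from each other in the AD model. Capitals mark kB and ISRE matches, each sequence runs 5′ to 3′ on the gene's own strand, and the windows of Cxcl1 and Cxcl2 stop before the first base that GENCODE M21 assigns to the gene. The Cxcl1 sequence is chr5:90890995-90891240 (+), that of Cxcl2 is chr5:90903649-90903870 (+), and that of Cxcl10 is chr5:92348890-92349139 (−), all in GRCm38.p6 (RefSeq).
Cxcl1: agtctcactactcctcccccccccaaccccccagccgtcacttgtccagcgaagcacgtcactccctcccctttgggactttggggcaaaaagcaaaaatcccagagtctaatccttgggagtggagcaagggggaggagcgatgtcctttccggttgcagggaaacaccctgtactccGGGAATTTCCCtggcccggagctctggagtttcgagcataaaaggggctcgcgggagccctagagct
Cxcl2: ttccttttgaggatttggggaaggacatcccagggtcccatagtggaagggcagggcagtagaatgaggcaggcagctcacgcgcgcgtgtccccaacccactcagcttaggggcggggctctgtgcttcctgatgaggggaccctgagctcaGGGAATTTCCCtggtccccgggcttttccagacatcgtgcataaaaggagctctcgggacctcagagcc
Cxcl10: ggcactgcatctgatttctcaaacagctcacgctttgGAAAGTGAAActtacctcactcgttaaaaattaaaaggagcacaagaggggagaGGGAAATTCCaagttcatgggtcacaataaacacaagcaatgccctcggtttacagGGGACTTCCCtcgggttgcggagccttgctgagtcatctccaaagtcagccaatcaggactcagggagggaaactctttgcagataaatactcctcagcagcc
The capital run of 11 bases is identical in Cxcl1 and Cxcl2 and matches the kB consensus on both strands; it lies 71 to 61 bases before the RefSeq start of Cxcl1 and 97 to 87 bases before that of Cxcl2. In Cxcl10 the first capital run is the ISRE core, 213 to 204 bases before the start, and the other 2 are kB matches at 159 to 150 and 103 to 94 bases. Its AP-1 match, at 74 to 68 bases, is left in lower case.

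All 33 genes had reads in both cell types, and 30 of 33 in each reached 1 CPM in both libraries of at least 1 group, which is the level called expressed here. With a limit of 0.5 CPM the number was 31 in each, and with 2 CPM it was 28 in microglia and 24 in astrocytes. The traces in microglia were Ccl19, the ligand of Ccr7, and the neutrophil attractants Cxcl1 and Cxcl5. Microglial Ccl19 lay between 0.227 and 0.805 CPM over the 8 libraries, Cxcl1 between 0.552 and 0.872 CPM, and Cxcl5 between 0 and 0.322 CPM. In astrocytes the traces were the T cell attractant Ccl17 and the receptors Ccr6 and Ccr7, which bind Ccl20 and Ccl19. Astrocytic Ccl17 reached 0.433 CPM at most, Ccr7 0.733 CPM and Ccr6 0.0696 CPM, and Ccr6 had no read in AD CKO, AD WT or CKO. Of the 33 genes, 32 passed the filter on low counts in each cell type, all but Cxcl5 in microglia and all but Ccr6 in astrocytes. Some passed through high groups only. The limit of the filter (10 counts at the median library total) was reached by both libraries in no more than 2 groups for Cxcl11 (AD CKO and CKO) and Ccl19 (AD WT and WT) in microglia, and for Cxcl9 (AD CKO and CKO), Ccl17 (CKO) and Ccr7 (CKO) in astrocytes. Admission in this way favours a difference between the groups, so such a test supports nothing. For comparisons within a cell type, counts of called members are also given without these genes where they change.

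Per length of transcript, Ccl4 and Ccl3 were the highest members in WT microglia, at 706 ± 37.1 and 604 ± 3.08 length-scaled CPM, followed by the monocyte attractant Ccl12 at 389 ± 60.7. Cxcl16, a membrane-bound ligand and lipoprotein scavenger, was next at 90.7 ± 3.56, and Ccl9 was at 77.1 ± 2.50, both below the 3 leading genes by more than their spread. The receptor Ccr6 was at 53.8 ± 1.92, and Ccr1, Cklf and Ccrl2 followed between 42.2 and 44.2 on the same scale, with overlapping SDs. In WT astrocytes Cxcl14, a ligand without an agreed receptor, was at 690 ± 9.15, the Cxcl12 scavenger Ackr3 at 76.5 ± 1.76, the membrane-bound ligand Cx3cl1 at 38.2 ± 0.0831 and Cxcl12 at 25.6 ± 1.02, again in length-scaled CPM and with gaps larger than the SDs.

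Between WT microglia and WT astrocytes, all 33 genes were tested in 1 fit over the 16 libraries, where 24 were higher in microglia and 9 were lower, against 39.5% and 39.4% of the 20589 genes tested (79.0% in either direction). The share higher in microglia was above that of all genes and the share lower was below it, and the median log2 fold change was 2.77, against -0.01 for all genes. These counts and the median include Ccr6 and Cxcl5. No astrocyte group reached the limit of the filter for Ccr6, and no microglia group for Cxcl5. Each entered the fit through the other cell type alone, so its call supports nothing. On the scale of that fit Ccl4 stood at 219 and 206 CPM in WT microglia, against 2.00 and 1.45 CPM in WT astrocytes (6.96 ± 0.12, adjusted p = 2.85e-22). Ccl3 stood at 209 and 213 CPM in WT microglia, against 1.72 and 2.19 CPM in WT astrocytes (6.74 ± 0.09, adjusted p = 5.3e-31). Neither ligand overlapped between the cell types. Ccr6 had 2303 counts in WT microglia and 3 in WT astrocytes, a ratio of 992 with a 95% exact counting interval of 339 to 4820. Ccr7 was at least 20.0-fold higher in WT microglia, since WT astrocytes had no read, when 3 counts per library stand for the group at 0.

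The 9 genes lower in microglia were Cxcl14, Cxcl5, Ackr3, Cxcl11, Cx3cl1, Cxcr4, Ccl19, Cxcl12 and Cxcl1. Cxcl14 stood at 4.92 and 4.51 CPM in WT microglia, against 488 and 471 CPM in WT astrocytes (-6.67 ± 0.09, adjusted p = 1.49e-30). Ackr3 was at 7.66 and 11.4 CPM in WT microglia, against 88.4 and 89.8 CPM in WT astrocytes (-3.22 ± 0.14, adjusted p = 2.79e-12), and its ligand Cxcl12 was lower as well (-0.88 ± 0.07, adjusted p = 1.22e-12). Cx3cl1 was at 10.3 and 10.8 CPM in WT microglia, against 48.7 and 47.7 CPM in WT astrocytes (-2.19 ± 0.12, adjusted p = 8.07e-14). Cxcr4, the signalling receptor of Cxcl12, was at 2.04 and 1.55 CPM in WT microglia, against 5.20 and 6.62 CPM in WT astrocytes (-1.72 ± 0.20, adjusted p = 4.36e-09). Cxcl11 rests on 3 counts in WT microglia and 29 in WT astrocytes, a ratio of 0.134 (95% exact counting interval 0.0261 to 0.431). Cxcl5 was lower in microglia too (log2 -4.16 ± 0.36). Since Cxcl5 entered this fit through astrocytes alone, the value is a description. The call for Cxcl1 (log2 -0.76 ± 0.26, adjusted p = 0.00921) was lost with the compared groups fitted alone (-0.81), without Microglia WT replicate 2 (-0.62) and without Astrocyte WT replicate 1 (-0.62), and that for Ccl19 (log2 -0.93 ± 0.36, adjusted p = 0.0213) with the compared groups fitted alone (-0.97), without Microglia WT replicate 2 (-0.59) and without Astrocyte WT replicate 1 (-0.40).

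**Figure D1:**
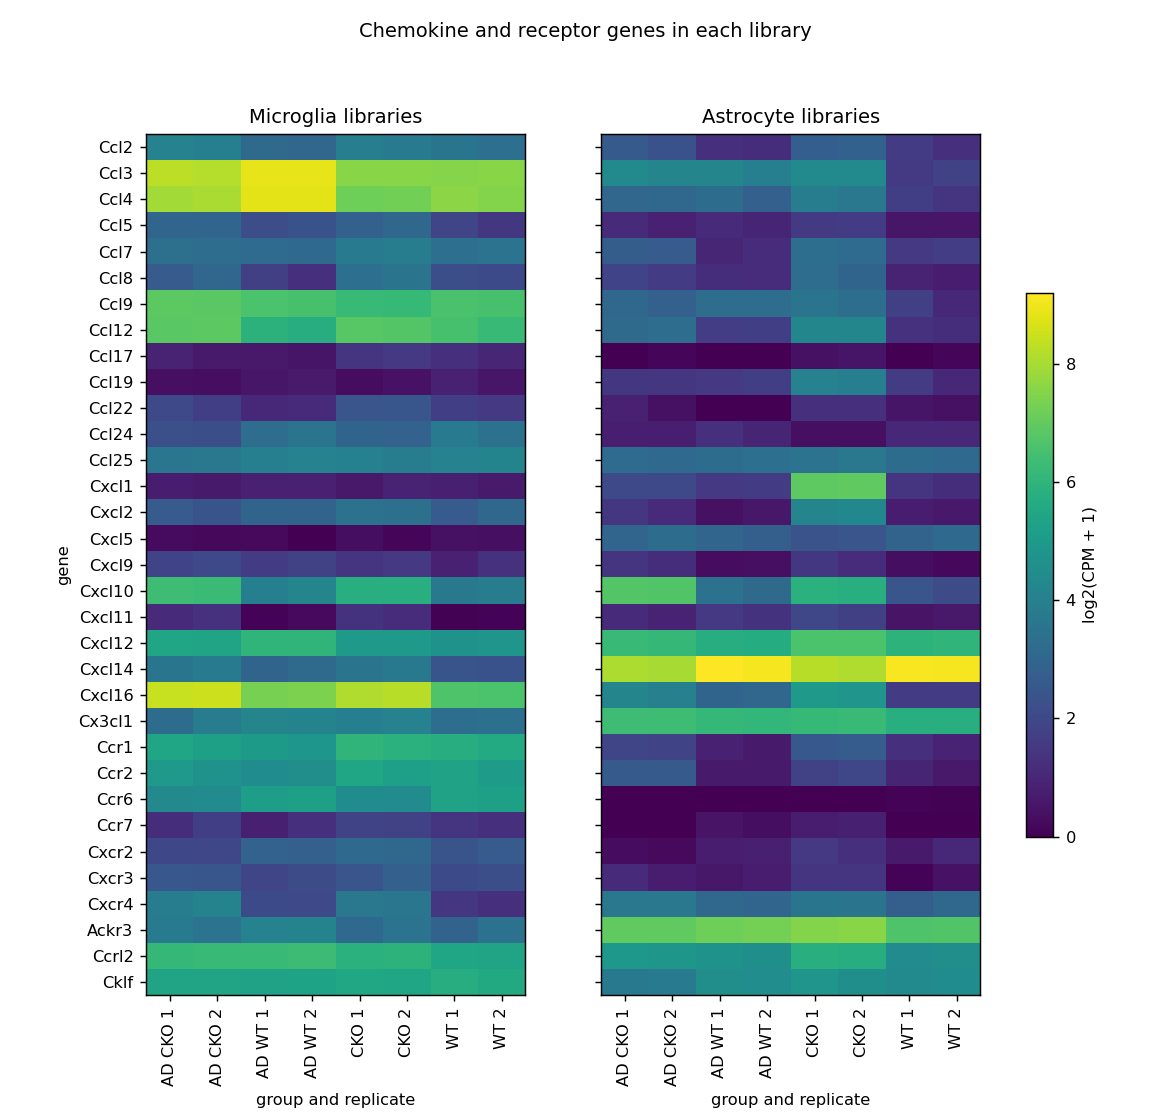
Levels of the 33 genes as log2(CPM + 1), colour scale at the side, in each of the 8 microglia and 8 astrocyte libraries, with 1 row per gene and 1 column per library. Ccl3, Ccl4 and Cxcl16 are high throughout microglia, Cxcl14 and Ackr3 are high throughout astrocytes, and astrocytic Cxcl1 reached 121 and 123 CPM in CKO only.

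In microglia, the knockout went with higher Cxcl10, Cxcl16, Cxcr4, Ccl5, Ccl8 and Cxcl14 and with lower Ccr6, Ccl24 and Ccl4, both in the AD model and without it. The AD model alone went with higher Ccl3, Ccl4 and Cxcl12 and with lower Ccr1 and Ccr2. With both, Ccl3, Ccl4 and Cxcl12 were below their level in AD WT and above that in CKO. In CKO compared with WT, 18 of the 32 tested members were higher and 5 lower, against 17.7% and 15.9% of 17318 genes (33.6% in either direction), with a median log2 fold change of 0.47 against 0.04 for all genes. In AD CKO compared with AD WT, 13 members were higher and 10 lower, against 17.0% and 15.0% of genes, with a median of 0.29 against 0 for all genes. Without Cxcl11 and Ccl19 the higher members were 17 of 30 in CKO and 12 of 30 in AD CKO. Higher members thus made up a larger share than among all genes in both comparisons, as did the 10 lower in AD CKO, whereas the 5 lower in CKO were near the share among all genes. These comparisons share no library, but the 2 effects are estimated in 1 fit.

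Among the Cxcr3 ligands, Cxcl10 stood at 79.6 and 76.6 CPM in AD CKO and 14.6 and 17.4 CPM in AD WT. Cxcl10 was at 54.1 and 55.2 CPM in CKO and 12.1 and 14.0 CPM in WT. All 4 knockout libraries lay above all 4 others. Cxcl10 was 4.88-fold higher in AD CKO than in AD WT (log2 2.29 ± 0.09, adjusted p = 2.66e-17) and 4.19-fold higher in CKO than in WT (log2 2.07 ± 0.09, adjusted p = 2.15e-16). The difference between these effects did not pass the test (interaction 0.22 ± 0.13, adjusted p = 0.299). Its neighbour Cxcl11, which GENCODE M21 annotates as a polymorphic pseudogene, stood at 1.13 and 1.51 CPM in AD CKO and 0.0681 and 0.172 CPM in AD WT. Cxcl11 was at 1.53 and 1.26 CPM in CKO and 0.0322 and 0.0660 CPM in WT. The groups with and without knockout did not overlap, although every library was below 2 CPM. Cxcl11 had 83 counts in CKO and 3 in WT, a ratio of 28.5 with a 95% exact counting interval of 9.43 to 141. It had 33 and 50 counts in AD CKO and 2 and 5 in AD WT. Since it entered the fit through the knockout groups alone, these values are a description. The third of these ligands, Cxcl9, stood at 2.57 and 3.09 CPM in AD CKO and 2.11 and 2.54 CPM in AD WT. Cxcl9 was at 1.69 and 1.85 CPM in CKO and 0.805 and 1.49 CPM in WT. It passed neither knockout comparison (log2 0.28 ± 0.32, adjusted p = 0.548 in AD CKO and 0.63 ± 0.34, adjusted p = 0.172 in CKO). Cxcl10 and Cxcl11 overlap Art3 on the opposite strand, whose microglial mean was at most 2.07 CPM in a group. The labels name amplification with SMART-Seq v4 and give no strand-keeping step. Reads of genes that overlap on opposite strands may thus be counted for either gene, which holds for Cxcl16 and Ccl25 as well.

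Cxcl16, the highest CXC ligand of WT microglia per length, was at 343 and 364 CPM in AD CKO and 159 and 165 CPM in AD WT. Cxcl16 was at 272 and 292 CPM in CKO and 99.4 and 95.1 CPM in WT. The 4 groups did not overlap, in the order AD CKO, CKO, AD WT and WT from high to low. The log2 fold change was 1.13 ± 0.05, adjusted p = 2.86e-16 for AD CKO and AD WT, and 1.54 ± 0.05, adjusted p = 2.52e-19 for CKO and WT, so the knockout effect was smaller in the AD model (interaction -0.41 ± 0.07, adjusted p = 0.000143). Zmynd15, which overlaps Cxcl16 on the opposite strand, had a mean of 26.7 CPM in AD CKO, 11.2 CPM in AD WT, 22.2 CPM in CKO and 8.96 CPM in WT. Cxcl14 stood at 11.0 and 12.4 CPM in AD CKO and 6.78 and 7.97 CPM in AD WT. Cxcl14 was at 10.5 and 12.2 CPM in CKO and 4.28 and 3.93 CPM in WT, which is far below its astrocytic level. WT was lowest and AD WT intermediate, and AD CKO and CKO overlapped. Cxcl14 was higher in AD CKO than in AD WT (log2 0.66 ± 0.16, adjusted p = 0.00157) and in CKO than in WT (1.47 ± 0.17, adjusted p = 3.99e-08), and the difference between the effects (interaction -0.81 ± 0.23, adjusted p = 0.0178) was lost without WT replicate 2 (-0.75), without CKO replicate 2 (-0.70), without AD WT replicate 2 (-0.68) and without AD CKO replicate 1 (-0.71).

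Cxcl12, which holds and guides Cxcr4-bearing cells, stood at 41.3 and 40.9 CPM in AD CKO and 64.6 and 64.1 CPM in AD WT. Cxcl12 was at 29.7 and 30.1 CPM in CKO and 25.3 and 26.5 CPM in WT. AD WT was highest and no group overlapped another. Cxcl12 was lower in AD CKO than in AD WT (log2 -0.65 ± 0.07, adjusted p = 9.31e-08) and higher in AD WT than in WT (1.31 ± 0.08, adjusted p = 3.18e-13) and in AD CKO than in CKO (0.46 ± 0.08, adjusted p = 7.97e-05), with an interaction of -0.85 ± 0.11, adjusted p = 2.2e-06. The difference between CKO and WT (0.21 ± 0.08, adjusted p = 0.0484) was lost with RLE size factors (0.18), with DESeq2 (0.18), with no filter on low counts (0.17), with the compared groups fitted alone (0.18), without WT replicate 1 (0.17), without WT replicate 2 (0.24), without CKO replicate 1 (0.19) and without CKO replicate 2 (0.19). The neutrophil attractant Cxcl2 stood at 5.20 and 4.27 CPM in AD CKO and 6.74 and 6.70 CPM in AD WT. Cxcl2 was at 9.99 and 9.59 CPM in CKO and 5.22 and 7.46 CPM in WT. It was lower in AD CKO than in CKO (log2 -1.05 ± 0.18, adjusted p = 0.000136), and the knockout effect was lower in the AD model than without it (interaction -1.14 ± 0.26, adjusted p = 0.00333). Its 2 knockout comparisons went in opposite directions (-0.51 ± 0.19 in the AD model and 0.63 ± 0.18 without it, adjusted p = 0.0391 and 0.0074) but were fragile: the first was lost with DESeq2 (-0.52), without AD WT replicate 1 (-0.50), without AD WT replicate 2 (-0.51) and without AD CKO replicate 2 (-0.37), the other without WT replicate 1 (0.39) and without CKO replicate 1 (0.57). Cxcl1 passed no microglial comparison.

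Cx3cl1, the ligand of the microglial receptor Cx3cr1, stood at 8.59 and 13.7 CPM in AD CKO and 17.2 and 16.5 CPM in AD WT. Cx3cl1 was at 14.8 and 15.8 CPM in CKO and 8.99 and 9.44 CPM in WT. The 2 AD CKO libraries were far apart, and replicate 1 was below both WT libraries. Cx3cl1 was higher in AD WT than in WT (log2 0.87 ± 0.16, adjusted p = 0.000373) and in CKO than in WT (0.73 ± 0.16, adjusted p = 0.00118), and the interaction was -1.32 ± 0.23, adjusted p = 0.000315. Its lower level in AD CKO than in AD WT (log2 -0.59 ± 0.16, adjusted p = 0.00636) was lost without AD WT replicate 1 (-0.56) and without AD CKO replicate 1 (-0.31). Endothelial markers (9 of 9 detected) summed to 553 to 557 CPM in AD CKO microglia, 813 CPM in AD WT, 521 to 543 CPM in CKO and 472 to 480 CPM in WT, and all 9 were higher in AD WT than in WT, as Cxcl12, Cx3cl1 and Ackr3 were. Their part in these differences was not tested.

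**Figure D2:**
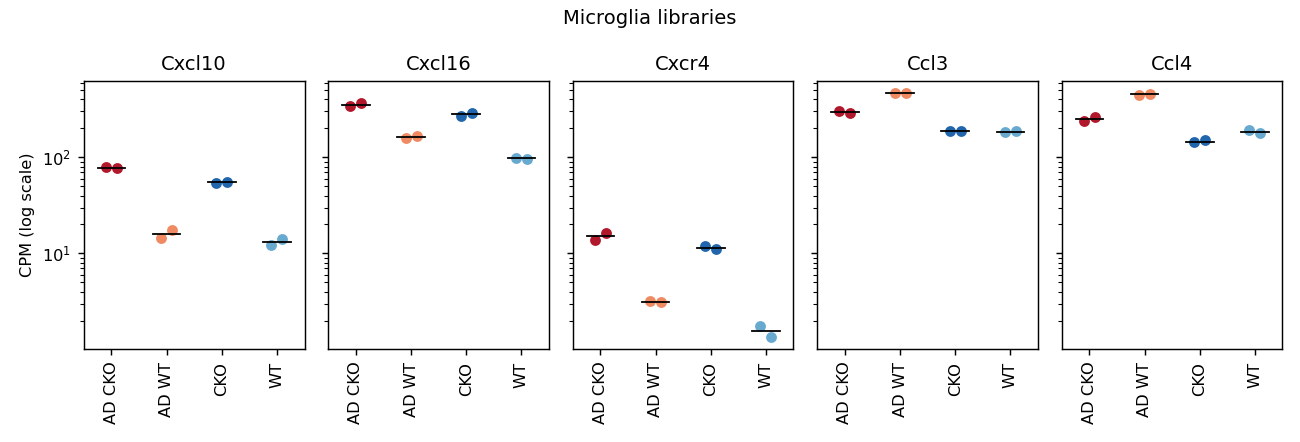
Levels of Cxcl10, Cxcl16, Cxcr4, Ccl3 and Ccl4 in microglia, in CPM on a log axis, with 1 point per library and a line at the mean of the 2 libraries of each group. Cxcl10, Cxcl16 and Cxcr4 are higher in AD CKO than in AD WT and in CKO than in WT, while Ccl3 and Ccl4 are highest in AD WT, at 448 to 465 CPM.

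Among the CC ligands, Ccl3 and Ccl4, macrophage inflammatory proteins, were higher in the AD model both with the knockout and without it. Ccl3 stood at 307 and 287 CPM in AD CKO and 462 and 465 CPM in AD WT. Ccl3 was at 190 and 188 CPM in CKO and 182 and 186 CPM in WT. AD WT was highest and AD CKO intermediate, and CKO and WT were close without overlapping. Ccl3 was higher in AD WT than in WT (log2 1.33 ± 0.05, adjusted p = 1.51e-18) and in AD CKO than in CKO (0.65 ± 0.04, adjusted p = 8.95e-12), and lower in AD CKO than in AD WT (-0.64 ± 0.04, adjusted p = 4.43e-12), whereas CKO and WT differed by 0.04 ± 0.05, adjusted p = 0.555. Ccl4 stood at 240 and 261 CPM in AD CKO and 448 and 454 CPM in AD WT. Ccl4 was at 143 and 150 CPM in CKO and 191 and 179 CPM in WT, with the same order of groups except that CKO lay below WT. It was lower in AD CKO than in AD WT (log2 -0.85 ± 0.05, adjusted p = 8.11e-14) and in CKO than in WT (-0.34 ± 0.05, adjusted p = 2.93e-06), and higher in AD WT than in WT (1.28 ± 0.05, adjusted p = 2.21e-17). The knockout effect was lower in the AD model for both genes (interaction -0.68 ± 0.06, adjusted p = 7.34e-09 for Ccl3 and -0.51 ± 0.07, adjusted p = 5.36e-06 for Ccl4).

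The monocyte attractants Ccl12, Ccl2 and Ccl8, on chromosome 11, rose with the knockout in the AD model, whereas Ccl7 did not pass there. Ccl12, a mouse ligand of Ccr2, stood at 115 and 116 CPM in AD CKO and 58.8 and 51.9 CPM in AD WT. Ccl12 was at 112 and 106 CPM in CKO and 91.6 and 74.2 CPM in WT. AD WT was lowest, and AD CKO and CKO were highest. Ccl12 was 2.09-fold higher in AD CKO than in AD WT (log2 1.06 ± 0.09, adjusted p = 3.55e-07) and 1.32-fold higher in CKO than in WT (log2 0.40 ± 0.09, adjusted p = 0.00242), and the interaction was 0.67 ± 0.12, adjusted p = 0.00222. Ccl2, the best known Ccr2 ligand, stood at 15.9 and 14.7 CPM in AD CKO and 8.07 and 7.18 CPM in AD WT. Ccl2 was at 14.3 and 12.4 CPM in CKO and 11.0 and 9.21 CPM in WT. It was 2-fold higher in AD CKO than in AD WT (log2 1.00 ± 0.14, adjusted p = 3.1e-06), while its difference between CKO and WT (0.40 ± 0.14, adjusted p = 0.0298) was lost with DESeq2 (0.38), with no filter on low counts (0.36), with the compared groups fitted alone (0.37), without WT replicate 2 (0.27) and without CKO replicate 1 (0.26). Ccl8, a ligand of Ccr8 in mice, stood at 5.24 and 7.20 CPM in AD CKO and 2.35 and 1.34 CPM in AD WT. Ccl8 was at 9.31 and 10.7 CPM in CKO and 3.64 and 3.24 CPM in WT, with no overlap between knockout and other libraries. Ccl8 was higher in AD CKO than in AD WT (log2 1.75 ± 0.24, adjusted p = 2.26e-06) and in CKO than in WT (1.54 ± 0.22, adjusted p = 2.98e-06). Ccl7 stood at 9.65 and 8.75 CPM in AD CKO and 8.38 and 7.87 CPM in AD WT. Ccl7 was at 13 and 13.5 CPM in CKO and 9.28 and 10.3 CPM in WT, with CKO highest. It passed between CKO and WT (log2 0.43 ± 0.14, adjusted p = 0.0166), a call lost without WT replicate 1 (0.36), without CKO replicate 1 (0.43) and without CKO replicate 2 (0.41), and did not pass between AD CKO and AD WT (0.18 ± 0.14, adjusted p = 0.385).

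Border macrophage and monocyte markers (9 of 9 detected) were, like Ccl8, Ccl12 and Ccl2, higher in sum in the knockout groups. Their sum was 402 to 410 CPM in AD CKO microglia, 191 to 192 CPM in AD WT, 518 to 523 CPM in CKO and 212 CPM in both WT libraries. Of these 9 markers, 4 were higher and 1 lower in AD CKO than in AD WT (median log2 fold change -0.12). In CKO compared with WT 6 were higher (median 0.44). In AD CKO compared with CKO 8 of them were lower, whereas Ccl12 and Ccl2 passed in neither direction. Ccl8 was lower too, but its call was lost in 4 of 10 alternative fits (log2 values from -0.93 to -0.45 over the 10). The part of cells with these markers in the levels of these ligands was not tested. The microglia markers went the other way, at 28200 to 28300 CPM in AD CKO, 42200 to 42600 CPM in AD WT, 26400 to 26700 CPM in CKO and 48500 to 50000 CPM in WT, with all 10 detected. Oligodendrocyte markers (10, of which at most 1 was at 0 in a library) summed to 2260 to 2310 CPM in AD CKO microglia, 3740 CPM in AD WT, 8220 to 8610 CPM in CKO and 3140 to 3280 CPM in WT.

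The remaining CC ligands were of lower level or moved less. Ccl5, which attracts T cells, stood at 7.05 and 6.96 CPM in AD CKO and 3.51 and 4.02 CPM in AD WT. Ccl5 was at 6.07 and 7.43 CPM in CKO and 2.83 and 1.78 CPM in WT, and knockout libraries lay above the others. It was higher in AD CKO than in AD WT (log2 0.90 ± 0.22, adjusted p = 0.00186) and in CKO than in WT (1.54 ± 0.23, adjusted p = 3.38e-06). Ccl9, a ligand of Ccr1 in mice, stood at 116 and 113 CPM in AD CKO and 95.5 and 90.9 CPM in AD WT. Ccl9 was at 74.0 and 71.1 CPM in CKO and 93.7 and 90.5 CPM in WT, highest in AD CKO and lowest in CKO. It changed in opposite directions, higher in AD CKO than in AD WT (log2 0.29 ± 0.06, adjusted p = 0.00018) and lower in CKO than in WT (-0.34 ± 0.06, adjusted p = 2.48e-05), with an interaction of 0.64 ± 0.08, adjusted p = 1.85e-06. Ccl22, which acts on Ccr4, stood at 3.08 and 2.27 CPM in AD CKO and 1.09 and 1.13 CPM in AD WT. Ccl22 was at 4.35 and 4.46 CPM in CKO and 2.26 and 1.85 CPM in WT. Ccl22 was higher in AD CKO than in AD WT (log2 1.26 ± 0.30, adjusted p = 0.00161) and in CKO than in WT (1.10 ± 0.27, adjusted p = 0.00227). Ccl17, the other Ccr4 ligand, stood at 0.890 and 0.605 CPM in AD CKO and 0.545 and 0.447 CPM in AD WT. Ccl17 was at 1.69 and 1.88 CPM in CKO and 1.45 and 0.991 CPM in WT. It passed neither knockout comparison (0.58 ± 0.47, adjusted p = 0.384 and 0.55 ± 0.41, adjusted p = 0.338). Ccl24, an eosinophil attractant acting on Ccr3, stood at 3.70 and 3.60 CPM in AD CKO and 8.82 and 10.7 CPM in AD WT. Ccl24 was at 6.78 and 6.42 CPM in CKO and 12.7 and 10.1 CPM in WT. Its knockout libraries were all below the others, and it was lower in AD CKO than in AD WT (log2 -1.42 ± 0.18, adjusted p = 3.33e-07) and in CKO than in WT (-0.79 ± 0.17, adjusted p = 0.000418). Ccl25, a Ccr9 ligand best known from the thymus, stood at 11.2 and 12 CPM in AD CKO and 14.7 and 15.7 CPM in AD WT. Ccl25 was at 15.4 and 14.0 CPM in CKO and 15.7 and 16.8 CPM in WT. Its lower level in AD CKO than in AD WT (-0.39 ± 0.12, adjusted p = 0.0155) was lost without AD WT replicate 2 (-0.34) and without AD CKO replicate 1 (-0.35). Ccl19 passed no microglial comparison.

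Among the receptors, Cxcr4 stood at 13.9 and 16.3 CPM in AD CKO and 3.17 and 3.09 CPM in AD WT. Cxcr4 was at 11.9 and 11.2 CPM in CKO and 1.77 and 1.35 CPM in WT. All 4 knockout libraries were above all others, and WT was lowest. Cxcr4 was 4.83-fold higher in AD CKO than in AD WT (log2 2.27 ± 0.17, adjusted p = 3.77e-11) and 7.36-fold higher in CKO than in WT (log2 2.88 ± 0.19, adjusted p = 1.22e-12), and AD WT was above WT (1.00 ± 0.21, adjusted p = 0.000912). Ccr6, the receptor of Ccl20, went the other way, at 19.3 and 20.8 CPM in AD CKO and 34.3 and 36.4 CPM in AD WT. Ccr6 was at 21.3 and 20.6 CPM in CKO and 38.3 and 36.8 CPM in WT. Ccr6 was lower in AD CKO than in AD WT (log2 -0.82 ± 0.09, adjusted p = 4.81e-08) and in CKO than in WT (-0.84 ± 0.09, adjusted p = 1.66e-08), without overlap, and the AD model made no difference that passed the test (-0.09 ± 0.09, adjusted p = 0.559 without the knockout). Ccr1, a receptor of Ccl3 and Ccl9, stood at 41.0 and 36.3 CPM in AD CKO and 31.1 and 27.2 CPM in AD WT. Ccr1 was at 63.9 and 57.0 CPM in CKO and 51.6 and 47.9 CPM in WT, and Ccr2, the monocyte receptor of Ccl2, at 30.5 and 25.5 CPM in AD CKO and 21.2 and 22.1 CPM in AD WT. Ccr2 was at 42.2 and 35.6 CPM in CKO and 38.7 and 32.0 CPM in WT. Both were lower in AD WT than in WT (log2 -0.77 ± 0.09, adjusted p = 1.41e-07 for Ccr1 and -0.71 ± 0.11, adjusted p = 4.57e-05 for Ccr2). Ccr1 was higher in AD CKO than in AD WT (0.41 ± 0.09, adjusted p = 0.00073), while its call in CKO (0.28 ± 0.08, adjusted p = 0.00993) was lost without WT replicate 2 (0.23) and without CKO replicate 1 (0.17). The higher Ccr2 in AD CKO than in AD WT (0.37 ± 0.11, adjusted p = 0.0147) was lost without AD WT replicate 1 (0.34), without AD WT replicate 2 (0.40) and without AD CKO replicate 1 (0.22), and CKO and WT overlapped.

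Cxcr2, the neutrophil receptor of Cxcl1 and Cxcl2, stood at 2.98 and 2.91 CPM in AD CKO and 6.34 and 6.12 CPM in AD WT. Cxcr2 was at 7.76 and 7.64 CPM in CKO and 4.28 and 5.18 CPM in WT. It was lowest in AD CKO and highest in CKO. Cxcr2 was lower in AD CKO than in AD WT (log2 -1.08 ± 0.20, adjusted p = 9.01e-05) and higher in CKO than in WT (0.70 ± 0.19, adjusted p = 0.00411, lost without WT replicate 1 (0.57)), the most negative interaction of the members tested in microglia (-1.78 ± 0.27, adjusted p = 2.91e-05). Neutrophil markers (7 of 7 detected) summed to 264 to 282 CPM in AD CKO, 424 to 428 CPM in AD WT, 601 to 602 CPM in CKO and 219 to 238 CPM in WT, with 6 lower in AD CKO than in AD WT and 7 higher in CKO than in WT. Their part in the level of Cxcr2 was not tested. Cxcr3, the receptor of Cxcl9, Cxcl10 and Cxcl11, stood at 4.69 and 4.54 CPM in AD CKO and 2.76 and 3.33 CPM in AD WT. Cxcr3 was at 4.38 and 6.10 CPM in CKO and 3.16 and 3.63 CPM in WT. Its difference between AD CKO and AD WT (0.60 ± 0.23, adjusted p = 0.0504) did not pass, and that between CKO and WT (0.62 ± 0.23, adjusted p = 0.0361) was lost with DESeq2 (0.61), with no filter on low counts (0.59), with the compared groups fitted alone (0.60), without WT replicate 1 (0.53), without WT replicate 2 (0.73) and without CKO replicate 2 (0.37). Ccr7, the homing receptor of dendritic and T cells, stood at 1.30 and 2.30 CPM in AD CKO and 0.749 and 1.41 CPM in AD WT. Ccr7 was at 2.69 and 2.41 CPM in CKO and 1.58 and 1.45 CPM in WT. It passed no microglial comparison.

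The atypical receptor Ccrl2, which binds chemerin, stood at 69.1 and 72.3 CPM in AD CKO and 73.3 and 77.3 CPM in AD WT. Ccrl2 was at 57.5 and 60.2 CPM in CKO and 42.2 and 40.4 CPM in WT. WT was lowest, CKO next, and the 2 AD groups were highest and did not overlap. Ccrl2 was higher in CKO than in WT (log2 0.51 ± 0.07, adjusted p = 7.37e-07) and in AD WT than in WT (0.87 ± 0.07, adjusted p = 9.67e-11), but AD CKO and AD WT did not differ past the test (-0.09 ± 0.07, adjusted p = 0.326, interaction -0.60 ± 0.09, adjusted p = 4.67e-05). Ackr3 stood at 13.1 and 10.4 CPM in AD CKO and 16.1 and 16.5 CPM in AD WT. Ackr3 was at 7.85 and 10.3 CPM in CKO and 6.67 and 9.97 CPM in WT. Ackr3 was higher in AD WT than in WT (log2 0.97 ± 0.18, adjusted p = 0.000426). The lower Ackr3 in AD CKO than in AD WT (-0.48 ± 0.17, adjusted p = 0.0405) was lost without AD WT replicate 1 (-0.49), without AD WT replicate 2 (-0.46) and without AD CKO replicate 2 (-0.32). Cklf, a small membrane-spanning factor with chemokine-like activity, stood at 40.4 and 40.4 CPM in AD CKO and 38.9 and 39.0 CPM in AD WT. Cklf was at 45.2 and 41.5 CPM in CKO and 52.4 and 47.2 CPM in WT. It was lower in AD WT than in WT (log2 -0.35 ± 0.08, adjusted p = 0.00142), and its difference between CKO and WT (-0.20 ± 0.08, adjusted p = 0.0492) was lost without WT replicate 1 (-0.12) and without CKO replicate 2 (-0.14).

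**Figure D3:**
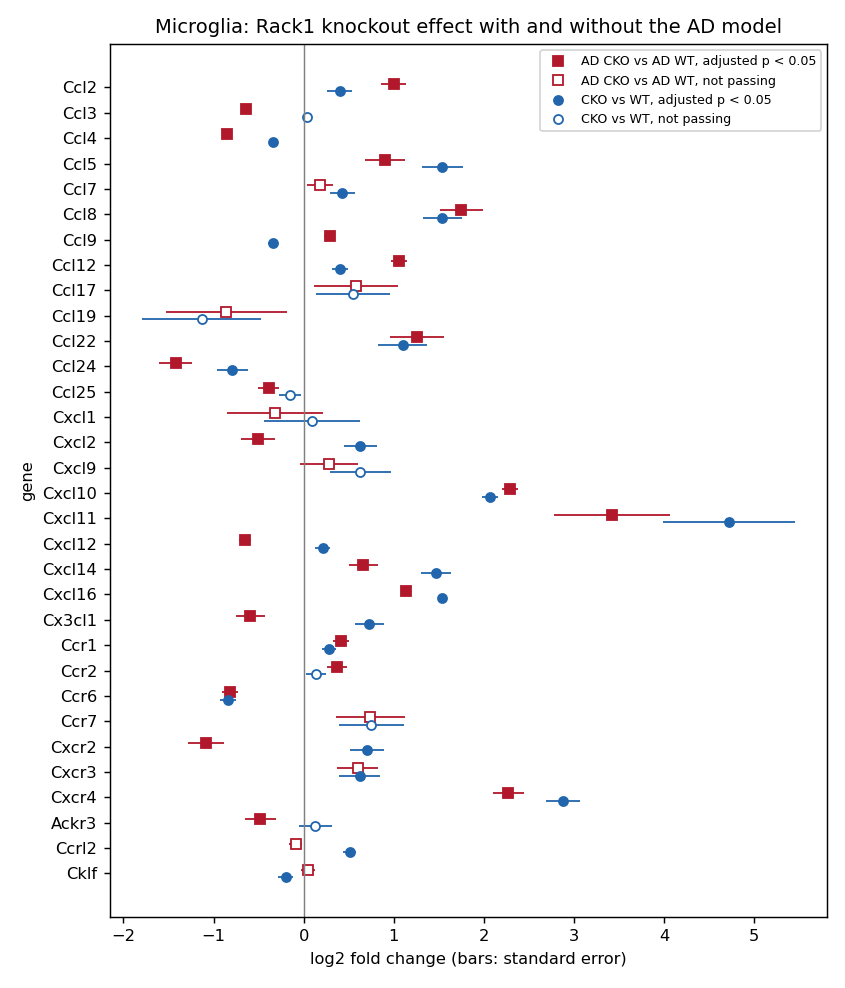
Log2 fold changes of the members tested in microglia, AD CKO compared with AD WT (squares) and CKO compared with WT (circles), with bars of 1 standard error and filled symbols for an adjusted p under 0.05. Cxcr4, Cxcl10, Cxcl16 and Ccl8 lie to the right in both comparisons and Ccr6 and Ccl24 to the left in both, while Cxcl2, Cxcl12, Cx3cl1, Cxcr2 and Ccl9 lie on opposite sides. The fitted positions of Cxcl11, also to the right, rest on 7 counts in AD WT and 3 in WT. Cxcl11 entered the fit through the knockout groups alone, so its symbols are a description.

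For the AD model itself, 12 members were higher and 8 lower in AD WT than in WT microglia, against 10.7% and 8.62% of genes, with a median of 0.05 against -0.02 for all genes. The 8 lower were Ccl2, Ccl8, Ccl12, Ccl17, Ccl22, Ccr1, Ccr2 and Cklf. Fewer were lower in several alternatives: 5 with DESeq2, with no filter on low counts, with the compared groups fitted alone or without AD WT replicate 1, and 4 without AD WT replicate 2 or without WT replicate 1. Ccl12 (log2 -0.58 ± 0.09, adjusted p = 0.00025), Ccr1, Ccr2 and Cklf passed in all of those. The calls of Ccl2 (-0.41), Ccl17 (-1.29) and Ccl22 (-0.88) were each lost with DESeq2, with no filter, with the compared groups alone and in 3 of the fits that leave out a library (WT replicate 1 and each AD WT library), where the values ran from -0.27 to -0.49, from -0.99 to -1.44 and from -0.73 to -0.91 in this order of genes. That of Ccl2 was also lost with RLE size factors (-0.41) and that of Ccl22 without WT replicate 2 (-1.02). The call of Ccl8 (log2 -0.90 ± 0.25, adjusted p = 0.0114) was lost without WT replicate 1 (-0.81) and without AD WT replicate 2 (-0.55). Among the 12 higher genes, Cxcl16 rose by 0.73 ± 0.05 and Cxcl14 by 0.84 ± 0.17 on the log2 scale, whereas the calls of Ccl5 (0.70 ± 0.23, adjusted p = 0.0337), Cxcl9 (1.02 ± 0.34, adjusted p = 0.0324) and Cxcl10 (0.29 ± 0.10, adjusted p = 0.0398) were not stable. That of Ccl5 was lost with DESeq2 (0.71), with the compared groups fitted alone (0.71), without WT replicate 2 (0.41), without AD WT replicate 1 (0.80) and without AD WT replicate 2 (0.60). That of Cxcl9 was lost with DESeq2 (1.03), without WT replicate 1 (0.65), without AD WT replicate 1 (1.15) and without AD WT replicate 2 (0.88), and that of Cxcl10 with the compared groups fitted alone (0.30), without WT replicate 1 (0.19) and without AD WT replicate 2 (0.16).

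In AD CKO compared with CKO microglia, 7 members were higher and 8 lower, against 7.73% and 6.92% of genes, with a median of -0.07 against 0 for all genes. The 7 higher were Ccl3, Ccl4, Ccl9 (log2 0.66 ± 0.06, adjusted p = 1.34e-09), Cxcl10 (0.51 ± 0.08, adjusted p = 3.42e-05), Cxcl12, Cxcl16 (0.32 ± 0.05, adjusted p = 1.65e-05) and Ccrl2, the last of which was lost without AD CKO replicate 2 (0.24). Cxcr2 (-1.39 ± 0.19, adjusted p = 5.99e-06), Cxcl2, Ccl24 (-0.85 ± 0.18, adjusted p = 0.0012) and Ccr1 (-0.65 ± 0.08, adjusted p = 2.26e-06) were lower in every alternative. Ccl7, Ccl8, Ccl17 and Ccr2 completed the 8, which were 4 without CKO replicate 1 and 5 without CKO replicate 2. Without CKO replicate 1 the values of these genes were -0.53 for Ccl7, -0.76 for Ccl8, -1.31 for Ccl17 and -0.33 for Ccr2, none past the threshold. The interaction, which is the knockout effect in the AD model minus that without it, was higher for 3 members and lower for 9, against 5.53% and 7.19% of genes, with a median of -0.30 against 0.01 for all genes. Of these, the call of Ccl2 (0.61) was lost with DESeq2 (0.61), without WT replicate 1 (0.47), without CKO replicate 2 (0.50), without AD WT replicate 1 (0.69), without AD WT replicate 2 (0.53), without AD CKO replicate 1 (0.56) and without AD CKO replicate 2 (0.67).

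In astrocytes, the members were mostly higher in CKO than in WT mice, led by Cxcl1, Cxcl2, Cxcl10, Cxcl16, Ccl12, Ccl8 and Ccl19, and Cxcl14 was lower. In the AD model the knockout was again accompanied by higher Cxcl10, Ccl12, Ccl2, Ccl7, Ccr1 and Ccr2 and lower Cxcl14, but Cxcl1 and Cxcl2 were far below their level in CKO and Ccl19 did not differ from AD WT past the test. In CKO compared with WT, 29 of the 32 tested members were higher and 3 lower, against 31.6% and 32.4% of 20116 genes, with a median log2 fold change of 2.15 against 0.01 for all genes. In AD CKO compared with AD WT, 16 were higher and 5 lower, against 25.1% and 27.0% of genes (52.1% in either direction), with a median of 0.37, or 0.28 with Ccl22 and Ccr7 at their bounds, against -0.03 for all genes. Without Cxcl9, Ccl17 and Ccr7, 26 of 29 were higher and 3 lower in CKO, and 15 of 29 were higher and 4 lower in AD CKO. Both counts of higher members were above the share among all genes, and both counts of lower members were below it. Since 64.0% of all genes passed between CKO and WT astrocytes, most genes of any kind were called in this comparison.

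Astrocytic Cxcl1 stood at 3.04 and 3.04 CPM in AD CKO and 1.88 and 2.01 CPM in AD WT. Cxcl1 was at 121 and 123 CPM in CKO and 1.64 and 1.33 CPM in WT. Both CKO libraries were far above the other 6, which stayed between 1.33 and 3.04 CPM. Cxcl1 was 82.8-fold higher in CKO than in WT (log2 6.37 ± 0.11, adjusted p = 4.91e-22), the largest fold among members with reads in all groups, and 1.56-fold higher in AD CKO than in AD WT (log2 0.64 ± 0.15, adjusted p = 0.000821). AD CKO was below CKO by -5.33 ± 0.09, adjusted p = 7.57e-21 on the log2 scale, and the interaction was -5.73 ± 0.21, adjusted p = 1.66e-15. Its neighbour Cxcl2 stood at 1.76 and 1.12 CPM in AD CKO and 0.323 and 0.526 CPM in AD WT. Cxcl2 was at 17.0 and 18.7 CPM in CKO and 0.661 and 0.557 CPM in WT, with CKO far above the others and AD CKO next. Cxcl2 was higher in CKO than in WT (log2 4.87 ± 0.24, adjusted p = 3.97e-14) and in AD CKO than in AD WT (1.75 ± 0.32, adjusted p = 7.29e-05), with an interaction of -3.12 ± 0.46, adjusted p = 4.82e-06. In the windows printed above these 2 genes carry the same kB run. Cxcl5, the other neutrophil attractant among the members, did not follow them. It stood at 7.02 and 8.47 CPM in AD CKO and 7.04 and 5.85 CPM in AD WT. Cxcl5 was at 4.12 and 4.33 CPM in CKO and 6.65 and 7.88 CPM in WT. Cxcl5 was lower in CKO than in WT (log2 -0.79 ± 0.17, adjusted p = 0.000256), and AD CKO and AD WT overlapped (0.27 ± 0.15, adjusted p = 0.157, interaction 1.05 ± 0.23, adjusted p = 0.000387).

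Cxcl10 stood at 105 and 102 CPM in AD CKO and 9.71 and 8.10 CPM in AD WT. Cxcl10 was at 58.2 and 53.8 CPM in CKO and 4.38 and 3.43 CPM in WT. Knockout libraries were above the others, and those of AD CKO were highest. Cxcl10 was 11.6-fold higher in AD CKO than in AD WT (log2 3.54 ± 0.09, adjusted p = 6.62e-18), 14.4-fold higher in CKO than in WT (log2 3.85 ± 0.11, adjusted p = 3.74e-18) and 1.85-fold higher in AD CKO than in CKO (0.88 ± 0.08, adjusted p = 1.4e-09), unlike Cxcl1 and Cxcl2 in that comparison. The interaction for Cxcl10 did not pass (-0.31 ± 0.15, adjusted p = 0.0753). Art3, which overlaps it on the opposite strand, had a mean of 18.6 CPM in AD CKO, 22.3 CPM in AD WT, 25.1 CPM in CKO and 17.5 CPM in WT. Cxcl9 stood at 1.70 and 1.33 CPM in AD CKO and 0.235 and 0.309 CPM in AD WT. Cxcl9 was at 1.81 and 1.23 CPM in CKO and 0.278 and 0.155 CPM in WT. All 4 knockout libraries lay above the 4 others, but Cxcl9 entered the fit through the knockout groups alone, so this is a description. Cxcl11 stood at 1.20 and 0.852 CPM in AD CKO and 1.88 and 1.55 CPM in AD WT. Cxcl11 was at 2.90 and 2.33 CPM in CKO and 0.383 and 0.557 CPM in WT. It was higher in CKO than in WT (log2 2.46 ± 0.35, adjusted p = 2.41e-06) but did not pass in AD CKO compared with AD WT (-0.74 ± 0.32, adjusted p = 0.0573), where its value was negative (interaction -3.20 ± 0.48, adjusted p = 5.47e-06).

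Cxcl16 stood at 17.3 and 15.2 CPM in AD CKO and 6.77 and 7.30 CPM in AD WT. Cxcl16 was at 30.2 and 27.1 CPM in CKO and 2.09 and 2.04 CPM in WT. No group overlapped another, and CKO was highest and WT lowest. The log2 fold change was 1.21 ± 0.11, adjusted p = 8.58e-09 in AD CKO compared with AD WT and 3.80 ± 0.14, adjusted p = 1.62e-16 in CKO compared with WT, with an interaction of -2.59 ± 0.18, adjusted p = 5.98e-11. Cxcl14, the highest member in WT astrocytes per length, stood at 265 and 253 CPM in AD CKO and 589 and 533 CPM in AD WT. Cxcl14 was at 292 and 272 CPM in CKO and 551 and 533 CPM in WT. The 4 knockout libraries lay between 253 and 292 CPM and the 4 others between 533 and 589 CPM. Cxcl14 was lower in AD CKO than in AD WT (log2 -1.12 ± 0.05, adjusted p = 1.91e-13) and in CKO than in WT (-0.94 ± 0.05, adjusted p = 5.82e-13). Cxcl12 stood at 74.4 and 69.3 CPM in AD CKO and 52.4 and 51.4 CPM in AD WT. Cxcl12 was at 95.5 and 96.7 CPM in CKO and 60.7 and 63.2 CPM in WT. Cxcl12 was higher in AD CKO than in AD WT (log2 0.47 ± 0.06, adjusted p = 7.41e-07) and in CKO than in WT (0.63 ± 0.06, adjusted p = 2.89e-09). Cx3cl1 stood at 79.5 and 80.0 CPM in AD CKO and 69.6 and 66.6 CPM in AD WT. Cx3cl1 was at 70.9 and 71.6 CPM in CKO and 55.0 and 54.0 CPM in WT, with small differences that passed in the same directions (0.23 ± 0.06, adjusted p = 0.00179 and 0.39 ± 0.06, adjusted p = 4.25e-06).

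**Figure D4:**
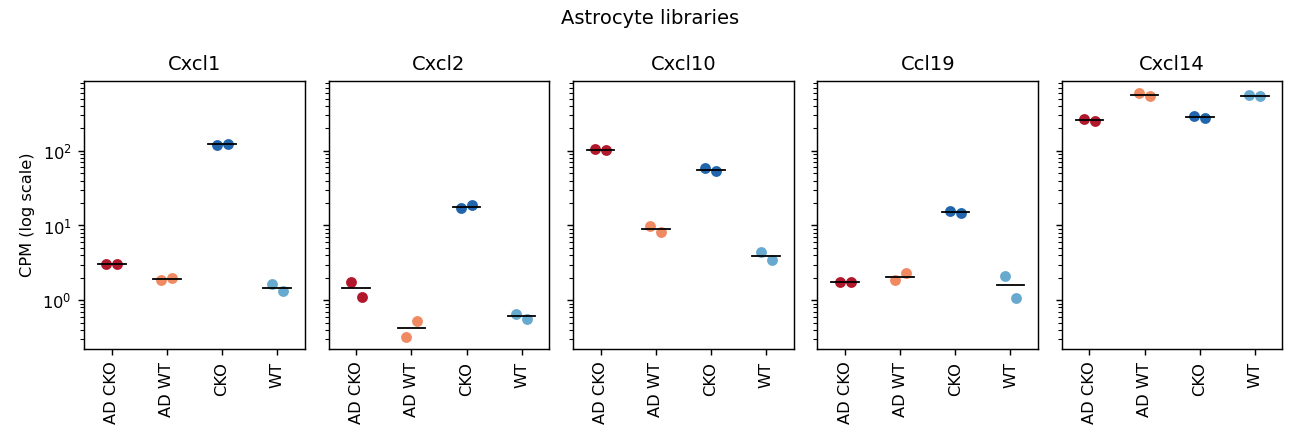
Levels of Cxcl1, Cxcl2, Cxcl10, Ccl19 and Cxcl14 in astrocytes, in CPM on a log axis, with 1 point per library and a line at the mean of the 2 libraries of each group. Cxcl1, Cxcl2 and Ccl19 are high in CKO only, Cxcl10 is high in both AD CKO and CKO, and Cxcl14 is low in both, at 253 to 292 CPM.

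Among the CC ligands, Ccl19 stood at 1.78 and 1.76 CPM in AD CKO and 1.85 and 2.29 CPM in AD WT. Ccl19 was at 15.7 and 14.6 CPM in CKO and 2.09 and 1.08 CPM in WT. The CKO libraries were above the other 6, none of which exceeded 2.29 CPM. Ccl19 was higher in CKO than in WT (log2 3.27 ± 0.22, adjusted p = 1.12e-11), did not pass in AD CKO compared with AD WT (-0.22 ± 0.24, adjusted p = 0.467), and had an interaction of -3.49 ± 0.33, adjusted p = 6.79e-09. Its near-identical copy Gm2564 (at least 95% identity over a share of at least 0.5 of the transcript) and the overlapping 4930578G10Rik had no read in astrocytes. Ccl12 stood at 7.97 and 8.68 CPM in AD CKO and 2.20 and 2.23 CPM in AD WT. Ccl12 was at 17.8 and 17.7 CPM in CKO and 1.46 and 1.33 CPM in WT, and Ccl8 at 2.65 and 2.02 CPM in AD CKO and 1.29 and 1.27 CPM in AD WT. Ccl8 was at 8.83 and 6.89 CPM in CKO and 0.870 and 0.649 CPM in WT. For both genes CKO was highest and AD CKO next. Ccl12 was higher in AD CKO than in AD WT (log2 1.91 ± 0.15, adjusted p = 6.46e-10) and in CKO than in WT (3.67 ± 0.16, adjusted p = 5.9e-15), with an interaction of -1.76 ± 0.23, adjusted p = 1.11e-06. For Ccl8 the values were 0.86 ± 0.25, adjusted p = 0.00625, lost without AD CKO replicate 1 (0.68), and 3.38 ± 0.26, adjusted p = 9.68e-11.

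The other Ccr2 ligands were higher in knockout libraries with and without the AD model. Ccl2 stood at 5.13 and 3.94 CPM in AD CKO and 1.38 and 1.33 CPM in AD WT. Ccl2 was at 5.78 and 6.29 CPM in CKO and 2.09 and 1.45 CPM in WT. Both knockout groups were above all other libraries, and the same held for Ccl7. Ccl7 stood at 5.63 and 5.22 CPM in AD CKO and 0.997 and 1.27 CPM in AD WT. Ccl7 was at 9.04 and 8.39 CPM in CKO and 1.88 and 2.16 CPM in WT. Ccl2 was higher in AD CKO than in AD WT (log2 1.74 ± 0.23, adjusted p = 1.41e-06) and in CKO than in WT (1.77 ± 0.22, adjusted p = 3.36e-07), and Ccl7 likewise (2.26 ± 0.21, adjusted p = 6e-09 and 2.10 ± 0.19, adjusted p = 1.62e-09). Neither interaction passed (-0.04 ± 0.33, adjusted p = 0.943 for Ccl2 and 0.16 ± 0.29, adjusted p = 0.667 for Ccl7).

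Ccl3 stood at 19.4 and 17.3 CPM in AD CKO and 17.0 and 14.6 CPM in AD WT. Ccl3 was at 20.1 and 19.6 CPM in CKO and 1.95 and 2.47 CPM in WT, and Ccl4 at 7.19 and 7.51 CPM in AD CKO and 8.59 and 6.15 CPM in AD WT. Ccl4 was at 13.4 and 11.7 CPM in CKO and 2.26 and 1.64 CPM in WT. WT was lowest for both, and AD CKO and AD WT were close or overlapped. Ccl3 was higher in CKO than in WT (log2 3.15 ± 0.14, adjusted p = 8.79e-15) and in AD WT than in WT (2.83 ± 0.14, adjusted p = 7.78e-13), and Ccl4 as well (2.69 ± 0.19, adjusted p = 2.89e-11 and 1.93 ± 0.20, adjusted p = 9.37e-08), but AD CKO and AD WT did not differ past the test (0.22 ± 0.11, adjusted p = 0.0992 for Ccl3 and -0.01 ± 0.16, adjusted p = 0.98 for Ccl4). Ccl9 stood at 7.44 and 5.99 CPM in AD CKO and 8.80 and 8.85 CPM in AD WT. Ccl9 was at 10.7 and 8.99 CPM in CKO and 2.33 and 1.11 CPM in WT, with the same pattern (log2 2.53 ± 0.23, adjusted p = 5.52e-08 in CKO compared with WT, or 3.14 without WT replicate 1, and -0.39 ± 0.19, adjusted p = 0.0946 in AD CKO compared with AD WT). Ccl5 stood at 1.17 and 0.799 CPM in AD CKO and 1.20 and 0.928 CPM in AD WT. Ccl5 was at 1.98 and 2.03 CPM in CKO and 0.487 and 0.464 CPM in WT. Ccl5 was higher in CKO than in WT (2.07 ± 0.38, adjusted p = 6.29e-05) but not past the test in AD CKO (-0.12 ± 0.36, adjusted p = 0.812). Microglia markers (10 of 10 detected) moved with these ligands, summing to 963 to 967 CPM in AD CKO astrocyte libraries, 953 to 990 CPM in AD WT, 1310 to 1350 CPM in CKO and 511 to 519 CPM in WT, with 9 of the 10 higher in CKO than in WT and in AD WT than in WT. Per 1000 CPM of those markers, Ccl3 was at 14.9 CPM in CKO astrocytes and 7.11 CPM in CKO microglia, and at 4.30 and 3.73 CPM in WT astrocytes and WT microglia. On the same scale Ccl4 was at 9.46 CPM in CKO astrocytes and 5.51 CPM in CKO microglia, and at 3.78 and 3.77 CPM in WT astrocytes and WT microglia. The level per microglia marker in astrocyte libraries, divided by that in microglia of the same genotype, was 2.10 in CKO and 1.15 in WT for Ccl3, 1.72 and 1.00 for Ccl4 and 2.72 and 1.79 for Ccl9. For Ccl5 it was 5.94 in CKO and 19.6 in WT, so in these groups Ccl5 stood apart from the other 3. In AD CKO and AD WT the ratio was 1.81 and 1.5 for Ccl3, and 0.859 and 0.719 for Ccl4. For Ccl9 it was 1.72 in AD CKO and 4.13 in AD WT, and for Ccl5 it was 4.11 and 12.4. The same ratio was 3440 in CKO and 212 in WT for Cxcl1, 36.3 and 9.22 for Cxcl2, 1060 and 238 for Ccl19, and 20.5 and 28.6 for Cxcl10. It was thus above 9 in WT as well for these 4 genes, and for Cxcl10 it was lower in CKO than in WT. In AD CKO and AD WT it was 138 and 105 for Cxcl1, and 8.92 and 2.74 for Cxcl2. For Ccl19 it was 178 in AD CKO and 170 in AD WT, and for Cxcl10 it was 38.8 and 24.4. The part of microglial RNA in the astrocyte levels of Ccl3, Ccl4, Ccl9 and Ccl5 was not tested.

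Ccl22 stood at 0.808 and 0.346 CPM in AD CKO and 0 and 0 CPM in AD WT. Ccl22 was at 1.45 and 1.37 CPM in CKO and 0.418 and 0.340 CPM in WT. With 3 counts per library standing for a group at 0, it was at least 6.38-fold higher in AD CKO than in AD WT and at least 4.19-fold lower in AD WT than in WT. Between CKO and WT its log2 fold change was 1.89 ± 0.53, adjusted p = 0.00377. Ccl17 had 24 counts in CKO and 3 in WT, a ratio of 7.66 with a 95% exact counting interval of 2.33 to 39.7. Since Ccl17 entered the fit through CKO alone, these values are a description. Ccl24 stood at 0.725 and 0.692 CPM in AD CKO and 1.35 and 0.959 CPM in AD WT. Ccl24 was at 0.296 and 0.300 CPM in CKO and 1.11 and 1.05 CPM in WT. Ccl24 was lower in CKO than in WT (log2 -1.85 ± 0.46, adjusted p = 0.00127) but not past the test in AD CKO (-0.70 ± 0.40, adjusted p = 0.146). Ccl25 stood at 8.28 and 7.80 CPM in AD CKO and 8.56 and 9.19 CPM in AD WT. Ccl25 was at 10.4 and 11.9 CPM in CKO and 8.52 and 7.76 CPM in WT. Its higher level in CKO than in WT (log2 0.45 ± 0.13, adjusted p = 0.00359) was lost without CKO replicate 2 (0.36). Ccl25 overlaps Elavl1 on the opposite strand, whose group means lay between 126 and 148 CPM.

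Among the receptors, Ackr3 was the highest in WT astrocytes per length, with levels of 123 and 124 CPM in AD CKO and 144 and 155 CPM in AD WT. Ackr3 was at 178 and 187 CPM in CKO and 99.9 and 102 CPM in WT. CKO was highest, WT lowest, and AD CKO lay below AD WT. The knockout effect was therefore opposite in the 2 settings, lower in AD CKO than in AD WT (log2 -0.27 ± 0.05, adjusted p = 0.000127) and higher in CKO than in WT (0.86 ± 0.05, adjusted p = 2.21e-12), with an interaction of -1.13 ± 0.07, adjusted p = 1.62e-11. Ccrl2 stood at 29.1 and 28.1 CPM in AD CKO and 24.5 and 22.8 CPM in AD WT. Ccrl2 was at 53.4 and 52.8 CPM in CKO and 20.6 and 22.3 CPM in WT, highest in CKO, and was higher in both knockout comparisons (log2 0.28 ± 0.08, adjusted p = 0.00461 and 1.30 ± 0.08, adjusted p = 1.09e-12). Cxcr4 stood at 11.8 and 11.9 CPM in AD CKO and 7.65 and 7.02 CPM in AD WT. Cxcr4 was at 11.0 and 10.7 CPM in CKO and 5.88 and 7.48 CPM in WT. The knockout effect had a log2 fold change of 0.69 ± 0.13 in AD CKO (adjusted p = 0.000104) and in CKO (adjusted p = 9.94e-05), with an interaction of 0.00 ± 0.17 (adjusted p = 1). Cklf was higher in CKO than in WT (log2 0.27 ± 0.09, adjusted p = 0.0167, lost without WT replicate 1 (0.22) and without CKO replicate 1 (0.15)) and lower in AD CKO than in AD WT (-0.79 ± 0.10, adjusted p = 4.05e-07), at 12.2 and 13.2 CPM in AD CKO and 22.2 and 21.8 CPM in AD WT. Cklf was at 26.5 and 22.7 CPM in CKO and 19.8 and 21.2 CPM in WT.

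The leukocyte receptors were of low level in astrocytes. Ccr2 stood at 5.16 and 5.09 CPM in AD CKO and 0.586 and 0.588 CPM in AD WT. Ccr2 was at 2.43 and 2.86 CPM in CKO and 0.939 and 0.557 CPM in WT. Ccr2 was highest in AD CKO. It was 8.67-fold higher in AD CKO than in AD WT (log2 3.12 ± 0.28, adjusted p = 4.96e-09) and 3.56-fold higher in CKO than in WT (log2 1.83 ± 0.29, adjusted p = 9.21e-06), and the interaction (1.29 ± 0.42, adjusted p = 0.0124) was lost without WT replicate 1 (0.89). Ccr1 stood at 2.79 and 2.66 CPM in AD CKO and 0.792 and 0.588 CPM in AD WT. Ccr1 was at 4.74 and 5.33 CPM in CKO and 1.36 and 0.835 CPM in WT. Ccr1 was higher in both knockout comparisons (log2 1.97 ± 0.29, adjusted p = 5.95e-06 and 2.21 ± 0.27, adjusted p = 2.03e-07). Cxcr3 stood at 1.17 and 0.666 CPM in AD CKO and 0.498 and 0.650 CPM in AD WT. Cxcr3 was at 1.60 and 1.60 CPM in CKO and 0.0696 and 0.371 CPM in WT. Cxcr3 was higher in CKO than in WT (log2 2.80 ± 0.54, adjusted p = 9.32e-05, with 2.09 without WT replicate 1 and 4.45 without WT replicate 2). Cxcr2 stood at 0.223 and 0.186 CPM in AD CKO and 0.645 and 0.773 CPM in AD WT. Cxcr2 was at 1.90 and 1.37 CPM in CKO and 0.591 and 1.02 CPM in WT. Cxcr2 was lower in AD CKO than in AD WT (log2 -1.77 ± 0.51, adjusted p = 0.00556), while its higher level in CKO than in WT (1.01 ± 0.41, adjusted p = 0.0353) was lost with DESeq2 (1.02), without WT replicate 1 (0.67) and without CKO replicate 1 (0.75). Ccr7 was read in CKO (0.652 and 0.733 CPM) and AD WT (0.411 and 0.278 CPM) and had no read in AD CKO or WT. It was at least 4.21-fold lower in AD CKO than in AD WT and at least 7.02-fold higher in CKO than in WT. Since Ccr7 entered the fit through CKO alone, these bounds are a description.

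Markers of other cells differed between the astrocyte groups as well. Endothelial markers (9 of 9 detected) summed to 2610 CPM in AD CKO, 2220 CPM in AD WT, 4760 to 4820 CPM in CKO and 1820 to 1830 CPM in WT, and 8 of 9 were higher in CKO than in WT. Neutrophil markers (7, of which at most 1 was at 0 in a library) summed to 26.7 to 27.8 CPM in AD CKO, 27.9 to 34.3 CPM in AD WT, 125 to 136 CPM in CKO and 49.8 to 52.4 CPM in WT. Border macrophage and monocyte markers (9 of 9 detected) summed to 46.3 to 52.3 CPM in AD CKO, 24.5 to 25.3 CPM in AD WT, 75.5 to 85.0 CPM in CKO and 22.3 to 22.6 CPM in WT. Lymphocyte markers (9, of which up to 3 were at 0 in a WT library) summed to 2.82 to 3.51 CPM in AD CKO, 3.46 to 5.19 CPM in AD WT, 8.86 to 11.3 CPM in CKO and 1.61 to 1.67 CPM in WT. Oligodendrocyte markers (10 of 10 detected) summed to 18900 to 19000 CPM in AD CKO, 6740 to 6940 CPM in AD WT, 13000 to 13300 CPM in CKO and 14300 to 14500 CPM in WT, and all 10 were higher in AD CKO than in AD WT. Ependymal and choroid markers (8 of 8 detected) summed to 5600 to 6020 CPM in AD CKO, 8540 to 9680 CPM in AD WT, 9430 to 10800 CPM in CKO and 4400 to 4720 CPM in WT, and 7 of 8 were higher in CKO than in WT. Mural cell markers (8 of 8 detected) summed to 1330 to 1370 CPM in AD CKO, 1210 to 1220 CPM in AD WT, 1910 to 1920 CPM in CKO and 829 to 860 CPM in WT, and 7 of 8 were higher in CKO than in WT. The astrocyte markers themselves summed to 12500 to 12600 CPM in AD CKO, 18500 to 19400 CPM in AD WT, 8630 to 8920 CPM in CKO and 19800 to 20400 CPM in WT. Cxcl1, Cxcl2, Ccl19 and Cxcr2 had their highest group in CKO, as most other members did. The endothelial, mural, neutrophil, border macrophage, lymphocyte, dendritic cell, microglia, and ependymal and choroid sums were highest there too. The dendritic cell markers include Ccr7, which is itself a member. Ccr2, Ccr1, Ccl7 and Ccl2 were high in both groups with high border macrophage sums. Ccr2, however, was higher in AD CKO than in CKO, whereas that sum was higher in CKO. Cxcl14 was low in both groups with low astrocyte sums. The part of these cells in the chemokine levels was not tested.

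**Figure D5:**
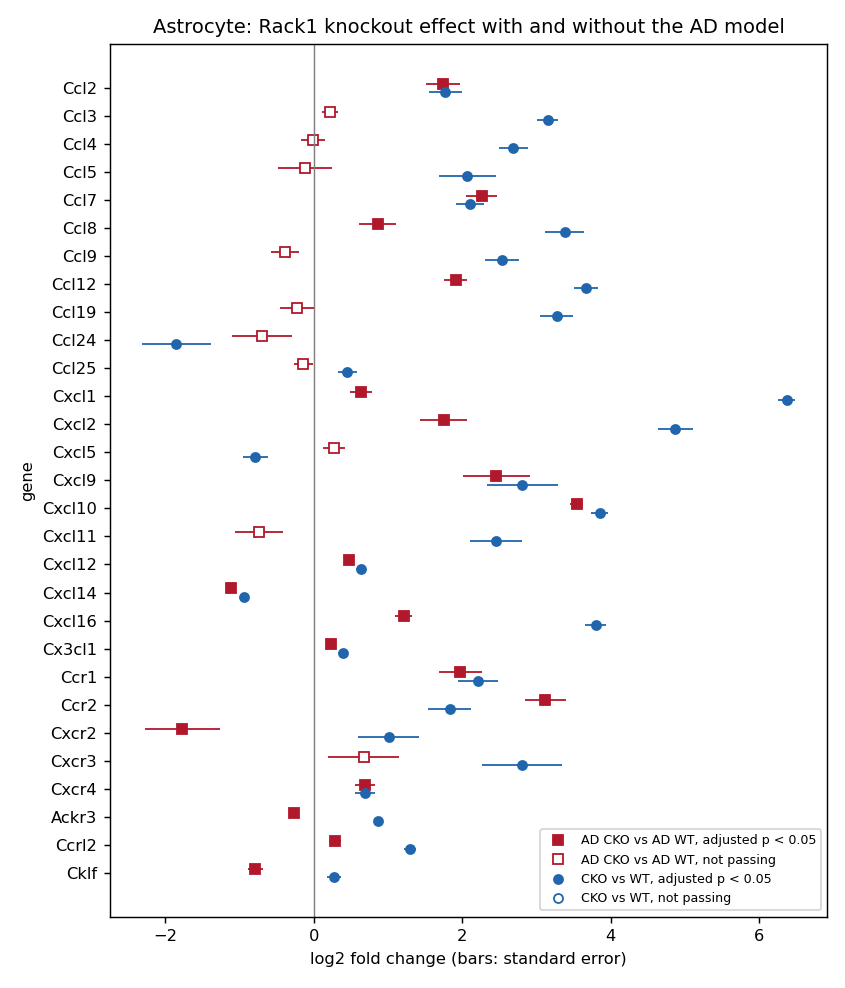
Log2 fold changes of the members tested in astrocytes, AD CKO compared with AD WT (squares) and CKO compared with WT (circles), with bars of 1 standard error and filled symbols for an adjusted p under 0.05; members with a group at 0 are left out. Circles reach 6.37 for Cxcl1, while its square is at 0.64. For Cxcl10, Ccl2, Ccl7, Ccr1, Cxcr4 and Cxcl14 squares and circles lie close together. Cxcl9 entered the fit through the knockout groups alone, so its symbols are a description.

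In AD WT compared with WT astrocytes, 11 members were higher and 3 lower, against 20.0% and 18.0% of genes (38.0% in either direction), with a median of 0.23 against 0.03 for all genes. Without Cxcl9, Ccl17 and Ccr7 the higher members were 10 of 29. Besides Ccl3, Ccl4 and Ccl9 (2.38 ± 0.23, adjusted p = 7.58e-07, or 2.97 without WT replicate 1), the higher genes with reads in all groups included Cxcl16 (log2 1.77 ± 0.15, adjusted p = 6.52e-09), Cxcl11 (1.85 ± 0.36, adjusted p = 0.000394), Cxcl10 (1.20 ± 0.12, adjusted p = 1.39e-07), Ackr3 (0.57 ± 0.05, adjusted p = 2.13e-08) and Cx3cl1 (0.32 ± 0.06, adjusted p = 0.000161). Ccl5 was lost with DESeq2 (1.15), with the compared groups fitted alone (1.13), without WT replicate 1 (1.18), without WT replicate 2 (1.11) and without AD WT replicate 1 (0.95), and Ccl12 with the compared groups fitted alone (0.64) and without WT replicate 2 (0.59). Cxcl12 was lower (-0.26 ± 0.06, adjusted p = 0.00199), as was Ccl7 (-0.84 ± 0.23, adjusted p = 0.00718), a call lost without WT replicate 2 (-0.74) and without AD WT replicate 1 (-0.68). Cxcl1 (0.40 ± 0.18, adjusted p = 0.0959), Cxcl2 (-0.52 ± 0.38, adjusted p = 0.3) and Cxcl14 (0.05 ± 0.05, adjusted p = 0.462) did not pass.

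In AD CKO compared with CKO astrocytes, 5 members were higher and 22 lower, against 31.4% and 28.4% of genes (59.8% in either direction), with a median of -0.79 against -0.01 for all genes. The share of members lower was above that of all genes, and the share higher was below it. The 5 higher were Cxcl10, Ccr2 (log2 0.95 ± 0.24, adjusted p = 0.00136), Cxcl5 (0.88 ± 0.16, adjusted p = 7.21e-05), Ccl24 and Cx3cl1, and 3 without CKO replicate 1 or without AD CKO replicate 2. Ccl24 (1.24 ± 0.47, adjusted p = 0.0266) was lost with DESeq2 (1.26), without CKO replicate 1 (1.23), without CKO replicate 2 (1.25), without AD CKO replicate 1 (1.22) and without AD CKO replicate 2 (1.28), and Cx3cl1 (0.16 ± 0.06, adjusted p = 0.0168) without CKO replicate 1 (0.16) and without AD CKO replicate 2 (0.16). After Cxcl1, the lower members with the most negative log2 fold changes and reads in all groups were Cxcl2 (-3.63 ± 0.20, adjusted p = 1.12e-12), Ccl19 (-3.09 ± 0.21, adjusted p = 2.81e-11), Cxcr2 (-2.98 ± 0.48, adjusted p = 1.26e-05) and Ccl8 (-1.75 ± 0.22, adjusted p = 3.23e-07). Ccl17 was called lower as well, but it had no read in AD WT and at most 24 counts in a group. Admitted to the fit through CKO alone, it was lost with DESeq2 (-2.81) and with no filter on low counts (-2.71). Its call was also lost without CKO replicate 1 (-2.91), without CKO replicate 2 (-2.51) and without AD CKO replicate 1 (-1.78). Among the smaller ones, Ccl22 (-1.29 ± 0.50, adjusted p = 0.0298) was lost with DESeq2 (-1.28), without CKO replicate 1 (-1.24), without CKO replicate 2 (-1.33) and without AD CKO replicate 2 (-0.79), Ccl5 (-1.03 ± 0.34, adjusted p = 0.0134) without CKO replicate 2 (-1.01) and without AD CKO replicate 2 (-0.77), Ccl9 (-0.55 ± 0.19, adjusted p = 0.0191) without CKO replicate 1 (-0.42) and without AD CKO replicate 2 (-0.40), and Cxcl14 (-0.12 ± 0.05, adjusted p = 0.0425) with RLE size factors (-0.12), with DESeq2 (-0.12), without CKO replicate 1 (-0.07), without AD CKO replicate 1 (-0.15) and without AD CKO replicate 2 (-0.08). The interaction was lower for 19 members and higher for 3 of 32, against 28.3% and 29.5% of genes (57.8% in either direction), with a median of -1.04 against -0.02 for all genes. Ccr7 and Ccl22, called in these counts, each had groups with no read. Without Cxcl9, Ccl17 and Ccr7, 20 of 29 were lower in AD CKO than in CKO and 18 had a lower interaction. The interaction of Cxcl14 (-0.17 ± 0.07, adjusted p = 0.0441) was lost with RLE size factors (-0.15), with DESeq2 (-0.15), with no filter on low counts (-0.15), without WT replicate 1 (-0.18), without WT replicate 2 (-0.13), without CKO replicate 1 (-0.11), without AD WT replicate 1 (-0.09), without AD CKO replicate 1 (-0.19) and without AD CKO replicate 2 (-0.13), and that of Cxcr3 (-2.12 ± 0.73, adjusted p = 0.0165) without WT replicate 1 (-1.41), without AD WT replicate 2 (-1.91) and without AD CKO replicate 2 (-1.76).

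Of 30 other chemokine family genes, 14 were tested in microglia, where 2 were higher and 6 lower in AD CKO than in AD WT, and 3 were higher and 7 lower in CKO than in WT. For the microglial lists here and below, the shares of all genes were 17.0% higher and 15.0% lower in AD CKO, and 17.7% and 15.9% in CKO, with medians of 0 and 0.04. Cxcl13, the B cell attractant, had a mean of 350 CPM in AD CKO and 1.28 CPM in AD WT (log2 8.09 ± 0.08, adjusted p = 4.13e-31), and of 553 CPM in CKO and 0.801 CPM in WT (9.43 ± 0.09, adjusted p = 2.77e-32). Cx3cr1, the receptor of Cx3cl1, averaged 1770 CPM in AD CKO and 3360 CPM in AD WT (-0.92 ± 0.05, adjusted p = 8.3e-08), and 1820 CPM in CKO and 4000 CPM in WT (-1.14 ± 0.05, adjusted p = 7.94e-09). In astrocytes 17 were tested, with 5 higher and 3 lower in AD CKO than in AD WT and 14 higher in CKO than in WT. Among all astrocyte genes 25.1% were higher and 27.0% lower in AD CKO, and 31.6% and 32.4% in CKO, so the 5 higher in AD CKO were near that share. Ackr1, an atypical receptor of venule endothelium that binds Cxcl1 and Ccl2, stood at 18.9 and 19.4 CPM in AD CKO, 9.24 and 8.20 CPM in AD WT, 218 and 208 CPM in CKO, and 1.25 and 1.24 CPM in WT (log2 1.14 ± 0.08 in AD CKO, adjusted p = 1.02e-10, and 7.42 ± 0.10 in CKO, adjusted p = 1.04e-23). Its groups had the same order as those of Cxcl1.

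Of 30 genes of signalling below chemokine receptors, 11 were higher and 5 lower in AD CKO than in AD WT microglia, and 7 higher and 13 lower in CKO than in WT, with medians of 0.08 and -0.10. The 5 lower in AD CKO were near the shares of all genes. Rgs10, which limits G protein signals, was lower in CKO than in WT microglia (log2 -0.66 ± 0.04, adjusted p = 2.39e-12), and Ptk2b, a kinase of integrin signalling, was higher (0.55 ± 0.05, adjusted p = 1.79e-10). Of 14 tested genes of chemokine cleavage and binding, 5 were higher and 3 lower in AD CKO than in AD WT microglia, and 7 higher and 1 lower in CKO than in WT. The gelatinase Mmp2 averaged 149 CPM in AD CKO and 34.5 CPM in AD WT (2.11 ± 0.06, adjusted p = 4.47e-20), and 158 CPM in CKO and 33.8 CPM in WT (2.23 ± 0.06, adjusted p = 5.2e-21). Of the tested cytokines and factors upstream of chemokine genes, 8 of 23 were higher and 6 lower in AD CKO than in AD WT microglia, and 10 higher and 7 lower in CKO than in WT. The immediate early factor Atf3 averaged 41.2 CPM in CKO and 141 CPM in WT microglia (-1.77 ± 0.06, adjusted p = 2.75e-19).

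In astrocytes 12 of 22 upstream genes were higher and 2 lower in AD CKO than in AD WT, and 19 higher and 1 lower in CKO than in WT, with medians of 0.48 and 1.22 against -0.03 and 0.01 for all genes. Nfkbia, an NF-kB target and inhibitor, averaged 423 CPM in CKO and 99.3 CPM in WT (log2 2.09 ± 0.07, adjusted p = 3.36e-14), and 108 CPM in AD CKO against 423 CPM in CKO (-1.97 ± 0.07, adjusted p = 1.86e-13). Irf7, a factor of interferon induction, averaged 71.7 CPM in AD CKO and 21.4 CPM in AD WT (1.74 ± 0.07, adjusted p = 9.39e-15). Of the signalling list, 11 of 30 were higher and 5 lower in AD CKO than in AD WT astrocytes, and 17 higher and 6 lower in CKO than in WT. Of the 14 tested cleavage and binding genes, 7 were higher and 4 lower in AD CKO than in AD WT, and 4 higher and 7 lower in CKO than in WT. In this list the 4 lower in AD CKO and the 4 higher in CKO were near the shares of all astrocyte genes.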

How the data were processed

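Bulk RNA-seq was measured in 16 libraries, 8 of microglia and 8 of astrocytes, with 2 libraries per genotype and cell type. Per the labels' protocols, RNA was extracted with TRIzol, amplified with SMART-Seq v4 and sequenced on a NovaSeq 6000. Per the submitters' processing notes, fastp, HISAT2 and StringTie were used with the mm10 build; versions and strand settings are not given in the sources used here. The authors deposited 1 table of expected counts per cell type, with values that need not be whole, and these were rounded to whole numbers. Amplified reads carry no molecular identifiers, so counting intervals and floors cover counting error only.

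Counts were scaled by TMM, filtered with filterByExpr and tested with the robust quasi-likelihood F-test of edgeR 4.0.16 (R 4.3.3), with the 4 groups of a cell type in 1 fit and Benjamini-Hochberg adjustment over all genes tested at 0.05. The fit kept 17318 genes in microglia, 20116 in astrocytes and 20589 in the fit over both cell types. A gene was called expressed at 1 CPM in both libraries of a group, and length-scaled levels use the longest GENCODE M21 transcript. Replicate numbers were not treated as pairs, since same-numbered libraries deviated together with correlations of -0.03 to 0.15. Tried as alternatives were DESeq2 1.42.0, RLE size factors, 2 other filters, the compared groups alone, a replicate block and each library left out in turn. The script was tested on simulated data. The members and the gene lists were chosen with earlier results of these data known. Genes outside the family were named by the smallest p-values, up to 4 per list and comparison; some genes that this rule names are not reported here.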

Additional observations from a re-analysis of the deposited data

Results flagged for a closer look

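In microglia the knockout effect differed between mice with and without the AD model for 12 of 32 tested members, by the interaction term of the edgeR fit. Over all genes, 12.7% of 17318 passed this term. In log2 units, the effect in the AD model minus that without it was positive for Ccl2 (0.61), Ccl9 (0.64) and Ccl12 (0.67). It was negative for Ccl3 (-0.68), Ccl4 (-0.51), Cxcl2 (-1.14), Cxcl12 (-0.85), Cxcl14 (-0.81), Cxcl16 (-0.41), Cx3cl1 (-1.32), Cxcr2 (-1.78) and Ccrl2 (-0.60). The calls of Ccl2 and Cxcl14 were lost in 7 and 4 of 13 alternatives.

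In astrocytes the same term passed for 20 members with reads in every group, of 32 tested. It also passed for 57.8% of all 20116 genes, so passing it was not particular to the members. It was positive for Cxcl5 (1.05) and Ccr2 (1.29), and negative for Ccl3 (-2.94), Ccl4 (-2.70), Ccl5 (-2.19), Ccl8 (-2.51), Ccl9 (-2.93), Ccl12 (-1.76), Ccl19 (-3.49), Ccl25 (-0.60), Cxcl1 (-5.73), Cxcl2 (-3.12), Cxcl11 (-3.20), Cxcl14 (-0.17), Cxcl16 (-2.59), Cxcr2 (-2.78), Cxcr3 (-2.12), Ackr3 (-1.13), Ccrl2 (-1.03) and Cklf (-1.06). Ccr7 and Ccl22 are not among these because some of their groups had no read. The calls of Cxcl14, Cxcr3 and Ccr2 were lost in 9, 3 and 1 of 13 alternatives.

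Some members passed in opposite directions in the 2 cell types under the same comparison, and the difference between cell types was not tested. The log2 fold changes are given with microglia before astrocytes. In CKO compared with WT these were Ccl4 (-0.34 and 2.69), Ccl9 (-0.34 and 2.53), Cxcl14 (1.47 and -0.94) and Cklf (-0.20 and 0.27). In AD WT compared with WT they were Ccl12 (-0.58 and 0.67) and Cxcl12 (1.31 and -0.26). In AD CKO compared with AD WT they were Cxcl2 (-0.51 and 1.75), Cxcl12 (-0.65 and 0.47), Cxcl14 (0.66 and -1.12) and Cx3cl1 (-0.59 and 0.23). In AD CKO compared with CKO they were Ccl4 (0.78 and -0.77), Ccl9 (0.66 and -0.55), Ccl24 (-0.85 and 1.24), Cxcl12 (0.46 and -0.42), Cxcl16 (0.32 and -0.82), Ccr2 (-0.48 and 0.95) and Ccrl2 (0.27 and -0.89). Not all of these calls were stable. Cklf was lost in 2 of 10 alternatives in each cell type. Astrocytic Ccl12 was lost in 2 of 10, microglial Cxcl2 in 4 of 10 and microglial Cx3cl1 in 2 of 10. For AD CKO compared with CKO, astrocytic Ccl24 was lost in 5 of 10. In that comparison astrocytic Ccl9 and microglial Ccr2 were lost in 2 of 10 each, and microglial Ccrl2 in 1 of 10.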

How the results depend on the processing

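The 242 calls of members were recomputed under 2513 alternatives in all, of which 2345 kept direction and call, 168 kept the direction without passing and 0 changed direction. In microglia 8 members were lower in AD WT than in WT, and 5 with DESeq2, with no filter on low counts or with the compared groups alone; leaving out 1 library gave 4 to 7. For AD CKO compared with CKO microglia, leaving out 1 library gave 4 to 6 lower members against 8, and for the same comparison in astrocytes 3 to 4 higher members against 5. The cause was not tested. Over all genes, 3343 passed between AD WT and WT microglia, and 2180 and 2118 did without AD WT replicate 1 and without AD WT replicate 2; 2202 genes passed the interaction, and 1457 and 1385 in the same fits. With the replicate block, 14 members in place of 13 were higher in AD CKO than in AD WT microglia, 9 in place of 8 lower in AD CKO than in CKO microglia, 12 in place of 11 higher in AD WT than in WT astrocytes, 6 in place of 5 lower in AD CKO than in AD WT astrocytes, and 22 in place of 19 had a lower interaction in astrocytes. The block changed no other count of members.

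Precision is limited by 2 libraries per group. Left-out fits that leave 1 library in a group assume that it varies like the other groups. Genes near 1 CPM rest on few reads. Without AD WT replicate 2, microglial Cxcl11 in AD CKO compared with AD WT was 4.20 in place of 3.42. In astrocytes the interaction of Ccl9 was -3.52 in place of -2.93 without WT replicate 1, and Ccl22 in AD CKO compared with CKO was -2.00 in place of -1.29 without AD CKO replicate 1. Between WT microglia and WT astrocytes, Cxcr3 was 3.55 and 5.89 without astrocyte WT replicate 1 and 2, and Ccl9 was 6.74 in place of 6.14 without astrocyte WT replicate 1.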
